A study of Arabidopsis thaliana with 24 samples.

Results

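A set of 10 Arabidopsis genes for the response to low oxygen and for ethanolic fermentation was followed through the 12 mRNA libraries of a study of the DEAD-box RNA helicase RH27, whose stated question was how RH27 affects miRNA accumulation, primary miRNA transcripts and miRNA targets. The genes were chosen by name and locus out of 33341 loci counted: PCO1 (AT5G15120), PCO2 (AT5G39890), HRA1 (AT3G10040), LBD41 (AT3G02550), HB1 (AT2G16060), SUS1 (AT5G20830), SUS4 (AT3G43190), PDC1 (AT4G33070), PDC2 (AT5G54960) and ADH1 (AT1G77120). They were chosen with earlier results of these data known. The 4 groups were rh27-2 root tips, Col-0 wild-type root tips, rh27-2 shoot apices and Col-0 wild-type shoot apices, with 3 libraries each. All seedlings had grown for 5 days after germination on Murashige and Skoog plates that held 1% sucrose, with 16 h of light and 8 h of dark, and no low-oxygen treatment is given in the labels. The mutant was represented by the single allele rh27-2, and the labels give neither the number of plants in a library nor the origin of the replicates. The p-values below therefore describe the scatter among these libraries, which may be technical.

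Plants that run short of oxygen shift from respiration to fermentation. Sucrose synthases cleave sucrose at a low energy cost, glycolysis makes pyruvate, pyruvate decarboxylases turn it into acetaldehyde, and alcohol dehydrogenase reduces the acetaldehyde to ethanol, which regenerates NAD+. The genes for these enzymes are switched on by group VII ethylene response factors such as RAP2.12. In air, plant cysteine oxidases use oxygen to oxidise the cysteine at the start of these factors, which marks them for degradation by the N-degron pathway. Growing tips are dense tissues in which oxygen is known to be low even in plants kept in air.

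Levels below are counts scaled to library size (CPM), with TMM factors over the 12 libraries, in replicate order 1, 2 and 3. They carry no length correction, so they are compared between groups for the same gene or the same summed list of genes. In such a sum the genes with the most counts weigh most. Fold changes are log2 ratios with their standard error (SE) from the quasi-likelihood test of edgeR, with p-values adjusted by Benjamini-Hochberg over all loci tested and called at 0.05. Libraries held 15603992 to 20380109 counts. RH27 itself measured 12.6, 14.9 and 13.7 CPM in rh27-2 root tips, against 25.5, 24.5 and 21.8 CPM in wild type, a called fall of 0.80 on the log2 scale (log2 fold change -0.80, SE 0.0940). In shoot apices it measured 25.8, 26.8 and 24.0 CPM in rh27-2 and 34.6, 26.9 and 30.8 CPM in wild type, and the log2 fold change of -0.33 did not pass the test (edgeR adjusted p = 0.0712), though it was called when library totals replaced TMM (-0.41, adjusted p = 0.0371) and without wild-type shoot replicate 2 (-0.43, adjusted p = 0.0411). The labelled organs matched their leaf and root cap markers: 6 photosynthetic leaf genes summed to 62.0 to 173 CPM in root tips of both genotypes, against 7340 to 26700 CPM in shoot apices, and 4 root cap genes summed to 46.0 to 54.4 CPM in root tips and at most 0.486 CPM in shoot apices. Of the 4 root stem cell niche genes, 3 were higher in wild-type root tips than in wild-type shoot apices. The other, WOX5, measured 1.12, 0.50 and 1.15 CPM in wild-type root tips and 5.47, 7.13 and 1.58 CPM in wild-type shoot apices.

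In root tips, most of the 10 genes were higher in rh27-2, while the related lists given further below went both ways. One of them, PCO2, passed the low-count filter only through the rh27-2 libraries, so it had to differ and is left out of the counts. Of the other 9, 8 rose in rh27-2 root tips, none fell (0 also at an unadjusted p under 0.05 in edgeR and by DESeq2) and SUS4 did not pass the test, while 31.3% of all 19443 loci tested rose and 30.9% fell. By sample values alone, the same 8 of these 9 lay higher in rh27-2 root tips without overlap, as did 34.6% of all loci, with 33.5% lower. The median log2 fold change of the 9 was 1.26, and that of all loci tested was 0.012. Because the genes were chosen with earlier results of these data known, the contrasts with all loci are a description and not a test. In shoot apices all 10 passed the filter through both genotypes, 5 rose (PCO2, SUS1, SUS4, PDC1 and PDC2), 1 fell (HRA1) and 4 did not pass the test, where 21.1% of 18972 loci rose and 19.8% fell. Without overlap, 5 lay higher and 1 lower, as did 30.5% and 24.4% of all loci. The median over the 10 was 0.69 in shoot apices, beside -0.025 for all loci tested there.

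**Figure D1:**
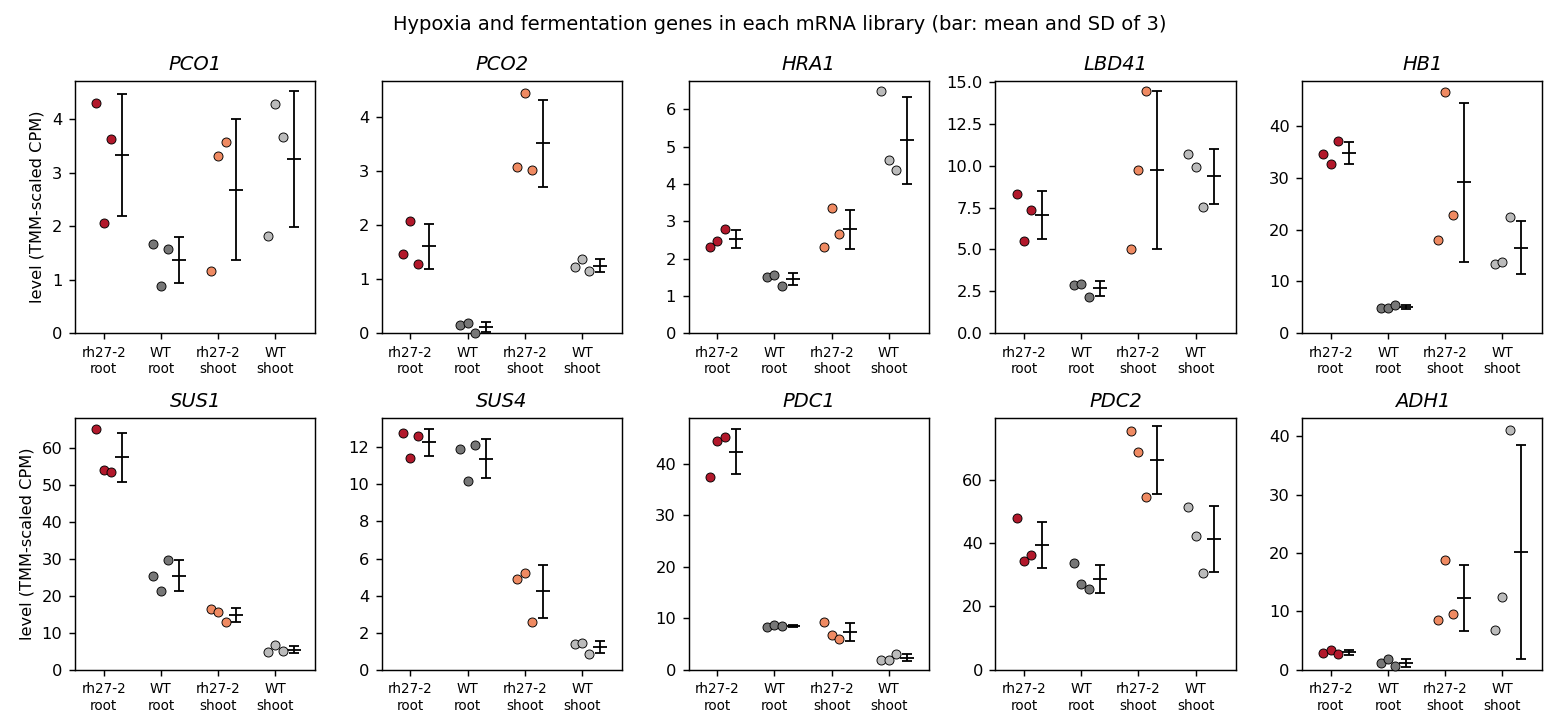
Level of each of the 10 genes (y axis, TMM-scaled CPM, each panel with its own scale starting at 0) in the 3 libraries of each group (points), with the mean and SD beside them. The rh27-2 root tips lie above wild-type root tips without overlap in every panel except SUS4, and the shoot apices of both genotypes overlap in the panels of PCO1, LBD41, HB1 and ADH1.

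The plant cysteine oxidases PCO1 and PCO2 act as the oxygen sensors of the pathway and are themselves switched on by low oxygen. PCO1 measured 4.30, 2.07 and 3.63 CPM in rh27-2 root tips, against 1.66, 0.874 and 1.57 CPM in wild type. The groups did not overlap, and PCO1 rose 2.39-fold (log2 1.26, SE 0.314, edgeR adjusted p = 0.00412). PCO2 was close to undetected in wild-type root tips: it had 28, 40 and 26 counts in the rh27-2 libraries, against 3, 3 and 0 counts in the wild-type libraries. Scaled to the library totals, the ratio of the summed counts was 15.0. It is given as a description, since the gene passed the filter only through rh27-2.

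In shoot apices the oxidases parted. PCO2 measured 3.07, 4.44 and 3.02 CPM in rh27-2 and 1.22, 1.38 and 1.15 CPM in wild type, so that each mutant library stood above each wild-type one, and it rose 2.70-fold (log2 1.43, SE 0.256, edgeR adjusted p = 0.00570). PCO1 measured 1.16, 3.30 and 3.58 CPM in rh27-2 shoot apices and 1.82, 4.28 and 3.66 CPM in wild type, with overlapping groups and a log2 difference of -0.35 (SE 0.475) that did not pass the test (edgeR adjusted p = 0.582). PCO2 made up 58.6% ± 13.5 of the reads counted on the PCO pair in rh27-2 shoot apices and 29.4% ± 9.19 in wild type (SD, n = 3 each). In root tips its share was 33.8% ± 14.0 in rh27-2 and 8.59% ± 8.83 in wild type (SD, n = 3 each), the second of these resting on 6 reads in all.

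HRA1 and LBD41 are transcription factor genes of the core low-oxygen response, and HRA1, a trihelix protein, binds RAP2.12 and dampens its action. HRA1 measured 2.31, 2.48 and 2.80 CPM in rh27-2 root tips, against 1.51, 1.56 and 1.27 CPM in wild type, a rise of 1.74-fold (log2 0.80, SE 0.221, edgeR adjusted p = 0.00706). In shoot apices the order of the genotypes was the opposite, with 2.32, 3.36 and 2.67 CPM in rh27-2 against 6.50, 4.64 and 4.37 CPM in wild type. No library of one genotype reached into the range of the other in either organ. HRA1 fell 1.92-fold in shoot apices (log2 -0.94, SE 0.237, edgeR adjusted p = 0.0187). That call was lost without wild-type shoot replicate 1 (log2 -0.77, adjusted p = 0.0538) and without rh27-2 shoot replicate 3 (log2 -0.91, adjusted p = 0.0631).

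LBD41, a gene of the lateral organ boundaries domain family, measured 8.29, 5.48 and 7.36 CPM in rh27-2 root tips, against 2.88, 2.93 and 2.18 CPM in wild type. The lowest mutant library exceeded the highest wild-type one, and the gene rose 2.62-fold (log2 1.39, SE 0.194, edgeR adjusted p = 4.05e-05). In shoot apices its libraries spread widely, at 5.05, 9.75 and 14.5 CPM in rh27-2 and 10.7, 9.93 and 7.54 CPM in wild type, and the groups overlapped. The log2 difference was -0.0041 (SE 0.352, edgeR adjusted p = 0.994).

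HB1 encodes a class 1 phytoglobin, a haem protein that removes nitric oxide when oxygen is scarce. It had the smallest adjusted p of the 10 in root tips, with 34.6, 32.7 and 37.1 CPM in rh27-2 against 4.93, 4.75 and 5.38 CPM in wild type. The 3 libraries of each group lay close together, and HB1 rose 6.91-fold (log2 2.79, SE 0.0963, edgeR adjusted p = 1.96e-10). In shoot apices it measured 18.0, 46.6 and 22.9 CPM in rh27-2 and 13.4, 13.7 and 22.4 CPM in wild type. Only rh27-2 replicate 2 stood far above the rest there, the groups overlapped, and the log2 difference of 0.76 (SE 0.386) did not pass the test (edgeR adjusted p = 0.154).

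The sucrose synthases SUS1 and SUS4 are close paralogues at the entry of sucrose into glycolysis. SUS1 measured 65.0, 53.8 and 53.3 CPM in rh27-2 root tips, against 25.3, 21.2 and 29.8 CPM in wild type, a rise of 2.25-fold (log2 1.17, SE 0.128, edgeR adjusted p = 6.49e-05). In shoot apices it measured 16.3, 15.6 and 12.8 CPM in rh27-2 and 4.68, 6.62 and 5.02 CPM in wild type, a rise of 2.61-fold (log2 1.39, SE 0.189, edgeR adjusted p = 0.00228). The genotypes did not overlap for SUS1 in either organ.

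SUS4 was the exception in root tips, with 12.8, 11.4 and 12.6 CPM in rh27-2 and 11.9, 10.2 and 12.1 CPM in wild type. These groups overlapped, and the log2 difference of 0.10 had an SE of 0.107 (edgeR adjusted p = 0.44). In shoot apices SUS4 measured 4.92, 5.20 and 2.60 CPM in rh27-2, against 1.40, 1.43 and 0.874 CPM in wild type, and rose 3.30-fold without overlap (log2 1.72, SE 0.346, edgeR adjusted p = 0.00871). The share of SUS1 in the counts of the pair was 82.3% ± 1.37 in rh27-2 root tips and 68.9% ± 1.93 in wild type, and 78.3% ± 4.27 in rh27-2 shoot apices and 81.5% ± 4.15 in wild type (SD, n = 3 each). Because reads of such paralogues can be counted on the wrong partner, the pair was also tested as a sum: SUS1 plus SUS4 rose by 0.91 on the log2 scale in root tips (edgeR adjusted p = 6.94e-05) and by 1.46 in shoot apices (edgeR adjusted p = 0.00216).

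PDC1 and PDC2 encode pyruvate decarboxylases, the first step of ethanolic fermentation after glycolysis. PDC1 measured 37.4, 44.4 and 45.3 CPM in rh27-2 root tips, against 8.30, 8.62 and 8.59 CPM in wild type, and rose 4.97-fold (log2 2.31, SE 0.0938, edgeR adjusted p = 6.98e-10). In shoot apices it measured 9.28, 6.72 and 5.90 CPM in rh27-2 and 1.88, 1.94 and 3.11 CPM in wild type, and rose 3.01-fold (log2 1.59, SE 0.291, edgeR adjusted p = 0.00631). In both organs all 3 mutant libraries exceeded all 3 wild-type ones.

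PDC2 moved less. It measured 47.9, 34.2 and 36.2 CPM in rh27-2 root tips, against 33.6, 27.1 and 25.4 CPM in wild type, where the lowest mutant library lay just above the highest wild-type one. The rise of 1.36-fold (log2 0.45, SE 0.159, edgeR adjusted p = 0.0431) was lost without wild-type root replicate 2 (adjusted p = 0.129), wild-type root replicate 3 (adjusted p = 0.136) or rh27-2 root replicate 3 (adjusted p = 0.0552), and without rh27-2 root replicate 1 it was log2 0.28. In shoot apices PDC2 measured 75.5, 68.8 and 54.6 CPM in rh27-2 and 51.4, 42.3 and 30.5 CPM in wild type, also without overlap. That rise of 1.54-fold (log2 0.63, SE 0.203, edgeR adjusted p = 0.0440) was lost without wild-type shoot replicate 2 (adjusted p = 0.0952) or 3 (adjusted p = 0.084), and without rh27-2 shoot replicate 1 (adjusted p = 0.107) or 2 (adjusted p = 0.121).

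Reads of the PDC pair were thus divided differently between the genotypes in root tips. PDC1 took 43.8%, 56.5% and 55.6% of the pair's counts in rh27-2 root tips, against 19.8%, 24.1% and 25.3% in wild type. In shoot apices it took 11%, 8.89% and 9.74% in rh27-2 and 3.54%, 4.38% and 9.27% in wild type, where wild-type replicate 3 fell inside the mutant range. As a sum, the pair rose by 1.13 on the log2 scale in root tips (edgeR adjusted p = 5.40e-08) and by 0.70 in shoot apices (edgeR adjusted p = 0.0251).

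**Figure D2:**
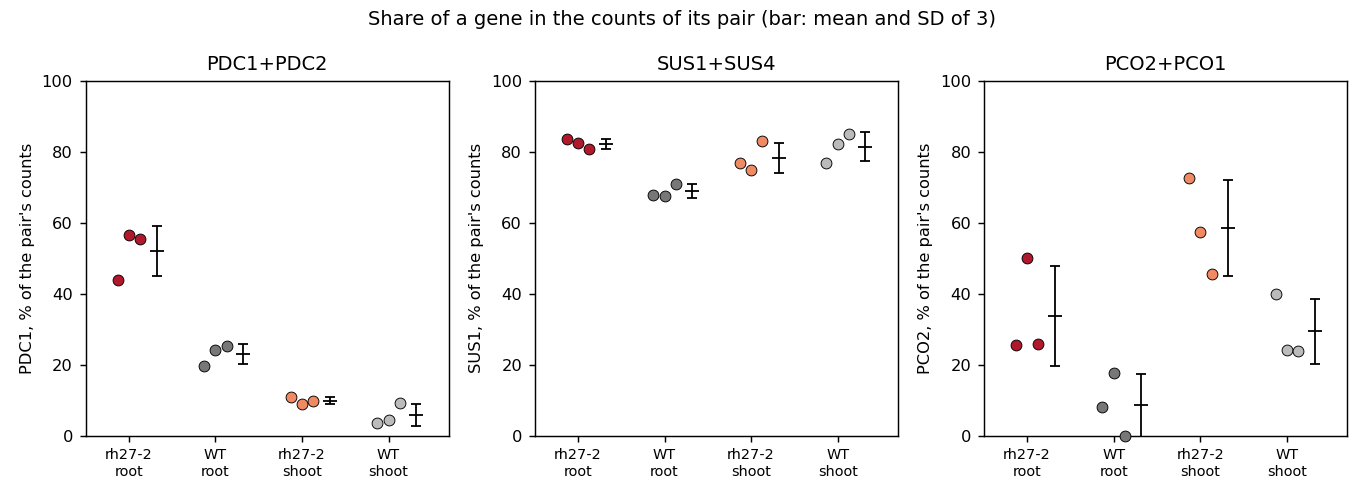
Share of PDC1, SUS1 and PCO2 (y axis, percent, 0 to 100) in the summed counts of each gene and its paralogue, per library (points) with the mean and SD beside them, in the 4 groups. The share of PDC1 in root tips lies between 43.8% and 56.5% in rh27-2 and between 19.8% and 25.3% in wild type.

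ADH1, the alcohol dehydrogenase that completes the pathway to ethanol, measured 2.89, 3.46 and 2.65 CPM in rh27-2 root tips, against 1.07, 1.87 and 0.605 CPM in wild type. It rose 2.54-fold without overlap (log2 1.34, SE 0.311, edgeR adjusted p = 0.00223), a call that was lost when all 12 libraries shared 1 estimate of the spread (log2 1.35, adjusted p = 0.163). In shoot apices ADH1 measured 8.53, 18.7 and 9.48 CPM in rh27-2 and 6.81, 12.5 and 41.1 CPM in wild type. Wild-type replicate 3 was the highest of all 12 libraries, the groups overlapped, and the log2 difference of -0.79 (SE 0.659) did not pass the test (edgeR adjusted p = 0.364). Without that library the difference was 0.27.

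Libraries of the mutant and the wild type also differed in cell type markers, which in bulk tissue cannot tell fewer cells of a type from less RNA per cell. Of all loci, 31.3% rose and 30.9% fell in root tips, so a count such as 2 of 4 is not far from these shares. In root tips, 4 of 4 root hair and epidermis genes fell in rh27-2, with a summed level of 113 to 116 CPM in rh27-2 against 263 to 302 CPM in wild type, and 4 of 5 endodermis genes fell, at 338 to 374 CPM in rh27-2 against 657 to 693 CPM in wild type. Of the vascular genes there, 3 of 4 xylem genes (268 to 291 CPM in rh27-2 and 361 to 429 CPM in wild type) and 2 of 4 phloem genes (87.7 to 115 CPM in rh27-2 and 109 to 145 CPM in wild type) fell. Of the 4 stem cell niche genes, which summed to 52.3 to 61.9 CPM in rh27-2 and 34.5 to 39.2 CPM in wild type, WOX5 passed the filter only through rh27-2 and 2 of the other 3 rose, as did 2 of 4 root cap genes, whose summed level overlapped at 46.8 to 54.4 CPM in rh27-2 and 46.0 to 54.1 CPM in wild type. Shoot meristem genes, 4 in all, were low in root tips but summed to 12 to 15.5 CPM in rh27-2 against 2.63 to 4.23 CPM in wild type. KNAT1, the only one of them that could be tested there, rose (log2 1.95, edgeR adjusted p = 6.68e-07), and CLV3 and WUS were at 0 in all wild-type root libraries.

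In shoot apices, 4 of 6 photosynthetic leaf genes fell, at 7340 to 17300 CPM in rh27-2 against 25300 to 26700 CPM in wild type. Both shoot meristem genes that could be tested, STM and KNAT1, rose there, and the 4 of that list summed to 159 to 208 CPM in rh27-2 and 30.5 to 52.0 CPM in wild type. Xylem genes (4 of 4, at 220 to 281 CPM in rh27-2 and 65.6 to 69.2 CPM in wild type) and phloem genes (3 of 4, at 191 to 257 CPM in rh27-2 and 84.4 to 123 CPM in wild type) also rose. Of all loci, 21.1% rose and 19.8% fell in shoot apices. The part of chance in counts from such short lists was not tested. The part of the marker shifts in the values of the 10 genes was not tested either.

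Whether rh27-2 acted differently in the organs was tested directly, as the effect in root tips minus the effect in shoot apices in 1 fit over the 12 libraries. PCO2 was called higher in root tips, but it passed the root tip filter only through rh27-2 and is left out of the count. Of the other 9, HB1, HRA1 and LBD41 had a higher effect in root tips and SUS4 a lower one. Of 20798 loci, 21.4% were called higher and 22.6% lower. The difference was 1.96 on the log2 scale for HB1 (SE 0.446, edgeR adjusted p = 0.00459), 2.25 for PCO2 (SE 0.626, adjusted p = 0.0130) and 1.68 for HRA1 (SE 0.307, adjusted p = 0.00125). The value of PCO2 rests on 3, 3 and 0 counts in the wild-type root libraries, close to the floor. For SUS4 it was -1.68 (SE 0.341, edgeR adjusted p = 0.00234). The genes named here for the enzymes from pyruvate to ethanol did not pass this test, with 0.66 for PDC1 (SE 0.282, adjusted p = 0.0754), -0.23 for PDC2 (SE 0.283, adjusted p = 0.541) and 2.06 for ADH1 (SE 0.917, adjusted p = 0.0890), and neither did PCO1 (1.55, SE 0.630, adjusted p = 0.0657) or SUS1 (-0.27, SE 0.230, adjusted p = 0.358).

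Some of these organ calls turned on single libraries. For LBD41 the difference was 1.34 (SE 0.455, edgeR adjusted p = 0.0324), and its call was lost without wild-type shoot replicate 1 (adjusted p = 0.0667) or 2 (0.0562), rh27-2 shoot replicate 2 (0.0586), wild-type root replicate 1 (0.0565) or 3 (0.0798), or rh27-2 root replicate 1 (0.0750) or 3 (0.0568). PDC1 gained a call without rh27-2 shoot replicate 1 (adjusted p = 0.0171), and ADH1 without wild-type shoot replicate 1 (adjusted p = 0.0268). PCO1 gained one without wild-type shoot replicate 1 (adjusted p = 0.0317) or rh27-2 root replicate 2 (adjusted p = 0.0453). With the replicate number as a block, PCO1 was also called (log2 1.59, adjusted p = 0.00258). As sums, the PCO pair passed the test of the organ difference (1.26, edgeR adjusted p = 0.0279), while the SUS pair (-0.60, adjusted p = 0.0519) and the PDC pair (0.38, adjusted p = 0.194) did not.

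**Figure D3:**
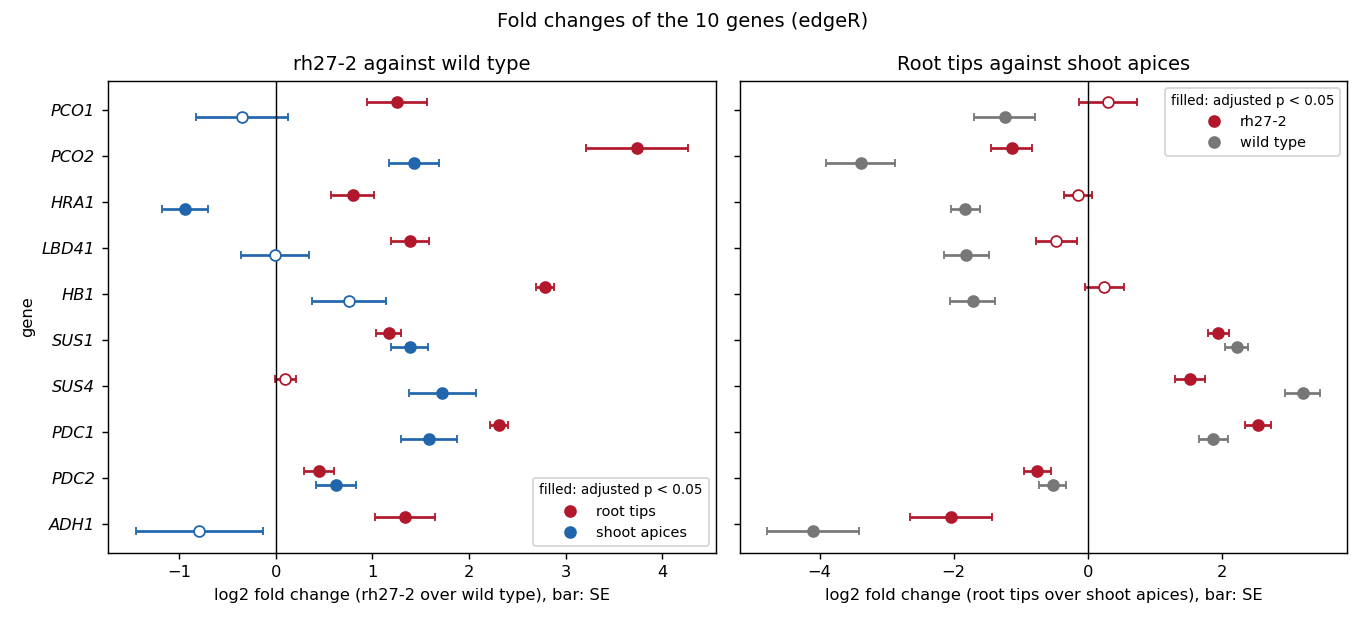
Log2 fold change (x axis, bars are SE) of each gene (y axis) for rh27-2 over wild type in root tips and shoot apices (left) and for root tips over shoot apices in rh27-2 and wild type (right), with filled points at an adjusted p under 0.05. HRA1 lies right of 0 in root tips and left of 0 in shoot apices, and HB1, PCO1, HRA1 and LBD41 are called lower in root tips of wild type but are not called in rh27-2.

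The same data gave the distribution of the genes between the organs in each genotype. In wild type all 10 differed between root tips and shoot apices: 3 were higher in root tips (SUS1, SUS4 and PDC1) and 7 lower, where 37.1% of 20798 loci were higher and 39.2% lower. In rh27-2, 3 were higher (the same SUS1, SUS4 and PDC1), 3 lower (PCO2, PDC2 and ADH1) and 4 did not pass the test, with 38.5% of loci higher and 34.1% lower. These organ contrasts use the same libraries as the comparisons of the genotypes and add no independent evidence to them.

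HB1 differed between root tips and shoot apices by 0.25 on the log2 scale in rh27-2 (SE 0.297, edgeR adjusted p = 0.468) and by -1.72 in wild type (SE 0.333, edgeR adjusted p = 0.000531). Without rh27-2 shoot replicate 2, its value in rh27-2 was 0.77 and was called (adjusted p = 0.00752). HRA1 differed by -0.14 in rh27-2 and -1.83 in wild type, and LBD41 by -0.47 in rh27-2 and -1.81 in wild type. LBD41 in rh27-2 was called at -0.78 without rh27-2 shoot replicate 1 (adjusted p = 0.0107). The wild-type and mutant contrasts of HB1, HRA1, LBD41, PCO2 and SUS4 differ by the organ difference tested above.

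PCO1 differed by 0.31 in rh27-2 and by -1.24 in wild type, and the wild-type call (edgeR adjusted p = 0.0273) was lost without wild-type shoot replicate 2 (adjusted p = 0.0992) or 3 (0.0714), without wild-type root replicate 2 (0.103), and with the replicate block (0.074). ADH1 was lower in root tips by 2.04 in rh27-2 and by 4.10 in wild type (log2 -2.04 and -4.10), and PCO2 had log2 values of -1.14 in rh27-2 and -3.39 in wild type. The wild-type value of PCO2 rests on 3, 3 and 0 counts in root tips. PDC2 had -0.75 in rh27-2 and -0.53 in wild type. The wild-type call of PDC2 (edgeR adjusted p = 0.0321) was lost without wild-type shoot replicate 1 (log2 -0.32, adjusted p = 0.174) or 2 (adjusted p = 0.0681), and without wild-type root replicate 2 (adjusted p = 0.0983) or 3 (adjusted p = 0.108).

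SUS1, SUS4 and PDC1 were higher in root tips of both genotypes. The log2 values were 1.95 in rh27-2 and 2.22 in wild type for SUS1, 1.52 in rh27-2 and 3.20 in wild type for SUS4, and 2.54 in rh27-2 and 1.87 in wild type for PDC1. For SUS1 the means of the 4 groups descended through rh27-2 root tips (57.4 CPM), wild-type root tips (25.4), rh27-2 shoot apices (14.9) and wild-type shoot apices (5.44), and no neighbours in that order overlapped. PDC1 had the same order, with wild-type root tips (8.50 CPM) and rh27-2 shoot apices (7.30 CPM) overlapping. PCO1 was the least separated of the 10, since each pair of neighbouring groups overlapped between its highest mean of 3.33 CPM in rh27-2 root tips and its lowest of 1.37 CPM in wild-type root tips.

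Across the 12 libraries the genes formed no single pattern. By Pearson's r of log2 CPM, which here follows 4 groups more than 12 independent points and is given as a description, SUS1 was most like PDC1 (r = 0.953) and SUS4 most like SUS1 (r = 0.937), HB1 and PCO2 were most like each other (r = 0.859), and LBD41 was most like PCO2 (r = 0.825). SUS4 ran against HRA1 (r = -0.812) and ADH1 (r = -0.811). Among all other genes with a symbol, those closest to HB1 were EDA25 (r = 0.977) and PMH2 (r = 0.955). Those closest to PDC1 were ERF1-1 (r = 0.989), a translation release factor gene, and MBF1A (r = 0.987), and those closest to SUS1 were BGLU45 (r = 0.990) and NAC010 (r = 0.985). For SUS4 they were UBC30 and TPI, the cytosolic triose phosphate isomerase of glycolysis (r = 0.986 each), and for PCO2 HCA2 (r = 0.987) and RSZ22 (r = 0.977).

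For the rest the closest genes were RS41 (r = 0.974) and PRR7 (r = 0.957), a circadian clock gene, for ADH1, EMB3108 (r = 0.972) and EMB2219 (r = 0.964) for HRA1, and SWEET17 (r = 0.963), a fructose transporter gene, and DiT1 (r = 0.935) for PDC2. They were DRB2 (r = 0.953) and EIF4A1 (r = 0.943) for LBD41. PCO1 had the weakest partners, WTF9 (r = 0.825) and TIC (r = 0.823).

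Paralogues of the 10 genes went both ways in root tips. There 13 of 14 were tested, and 2 of them, AT5G01320 and LBD40, passed the filter only through rh27-2. Of the other 11, 5 rose and 1 fell, where 31.3% of all loci rose and 30.9% fell. HB2, the second phytoglobin gene, measured 39.8, 38.7 and 39.5 CPM in rh27-2 root tips against 9.17, 9.80 and 8.41 CPM in wild type (log2 2.10, SE 0.0813, edgeR adjusted p = 4.98e-10). SUS3 measured 89.2, 109.6 and 101.1 CPM in rh27-2 root tips, against 27.4, 35.0 and 33.1 CPM in wild type (log2 1.65, edgeR adjusted p = 5.88e-07). PDC3 was the one that fell, at 15.6, 15.7 and 16.4 CPM in rh27-2 and 38.5, 38.5 and 51.0 CPM in wild type (log2 -1.43, edgeR adjusted p = 8.30e-07).

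In shoot apices 5 of 11 paralogues tested rose and none fell (0 also at an unadjusted p under 0.05 in edgeR and by DESeq2), where 21.1% of all loci rose and 19.8% fell. SUS5 (log2 2.21, edgeR adjusted p = 0.000684), SUS6 (log2 1.76, adjusted p = 0.000723) and SUS3 (log2 1.66, adjusted p = 0.00228) rose beside SUS1 and SUS4, while SUS2 measured -0.47 (adjusted p = 0.134). PDC3 was higher in rh27-2 shoot apices, at 3.69, 3.52 and 3.51 CPM against 0.729, 1.73 and 1.42 CPM in wild type (log2 1.38, edgeR adjusted p = 0.0147), the opposite direction to root tips. HB2 measured 0.52 there (edgeR adjusted p = 0.143).

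Of 16 genes of the oxygen-sensing machinery, 15 were tested in root tips. HRE2 passed the filter only through rh27-2, and of the other 14, 2 rose and 5 fell, beside 31.3% of loci higher and 30.9% lower, so the share that fell was near that of all loci. HRE1, a group VII factor gene that low oxygen induces, measured 9.34, 7.54 and 8.09 CPM in rh27-2 root tips against 4.10, 2.44 and 3.08 CPM in wild type (log2 1.35, edgeR adjusted p = 2.92e-05). RAP2.12 fell slightly, by 0.22 on the log2 scale (edgeR adjusted p = 0.00156), and ATE1, an arginyl transferase gene of the N-degron pathway, fell by 0.49 (adjusted p = 0.000289). In shoot apices 16 were tested, ZPR2 passed only through rh27-2, and of the other 15 none rose and 3 fell at the threshold: PCO3 (log2 -1.21, edgeR adjusted p = 0.00224), PCO5 (-0.69, adjusted p = 0.0186) and ACBP1 (-0.35, adjusted p = 0.0393). Of all loci, 21.1% rose and 19.8% fell there. PCO3 and PCO5 are the oxidase genes not induced by low oxygen. RAP2.2 had an unadjusted p of 0.023 in shoot apices (log2 0.71, edgeR adjusted p = 0.0544), and DESeq2 called 2 of the 16 higher.

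Of 42 other genes that low oxygen induces, 36 were tested in root tips, and 2 of these passed the filter through 1 genotype only. Of the other 34, 15 rose and 10 fell, beside 31.3% of loci higher and 30.9% lower, and the median log2 fold change was 0.20. RBOHD, an NADPH oxidase gene, measured 87.8, 89.8 and 79.0 CPM in rh27-2 root tips against 27.6, 28.2 and 32.2 CPM in wild type (log2 1.54, edgeR adjusted p = 3.37e-09). ACO1, for the last enzyme of ethylene synthesis, measured 27.7, 22.3 and 22.4 CPM in rh27-2 root tips and 8.10, 5.74 and 6.53 CPM in wild type (log2 1.81, edgeR adjusted p = 2.25e-07), and AT4G17670 also rose (log2 1.60). AT3G10020 fell (log2 -1.35, edgeR adjusted p = 3.95e-07). In shoot apices 33 were tested, 9 rose and 5 fell, beside 21.1% of loci higher and 19.8% lower, with a median of 0.20. AT4G24110 (log2 0.96), AT3G03270 (1.50), ACO1 (1.40) and PP2-A11 (0.92) had the smallest adjusted p there (edgeR, 0.00183 to 0.00351).

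Of 5 fermentation partners, which are lactate dehydrogenase, alanine aminotransferase and mitochondrial aldehyde dehydrogenase genes, 2 rose and 1 fell in each organ, with a median log2 fold change of 0.17 in root tips and 0.40 in shoot apices. Of all loci, 31.3% rose and 30.9% fell in root tips, and 21.1% rose and 19.8% fell in shoot apices. ALDH2B4 rose in root tips (log2 0.39, edgeR adjusted p = 5.96e-05) and fell in shoot apices (-0.56, adjusted p = 0.00616), and ALDH2B7 fell in root tips (-0.66, adjusted p = 3.46e-06) and rose in shoot apices (1.59, adjusted p = 0.0464). Of 41 genes that lead from sucrose to pyruvate, 37 were tested in root tips, where 14 rose and 13 fell with a median of 0.090, beside 31.3% of loci higher and 30.9% lower. In shoot apices 37 were tested, AT3G59480 passed the filter only through wild type, and of the other 36, 6 rose and 5 fell with a median of 0.14, beside 21.1% of loci higher and 19.8% lower. The summed level of the 41 was 5080 to 5240 CPM in rh27-2 shoot apices and 3950 to 4700 CPM in wild type.

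PFK2, a phosphofructokinase gene, rose by 1.48 on the log2 scale in root tips (edgeR adjusted p = 2.31e-07). CINV1, a cytosolic invertase gene that cleaves sucrose by the route other than sucrose synthase, fell there by 0.61 (adjusted p = 2.39e-07). Its relative CINV2 fell by 1.02 in shoot apices (adjusted p = 0.00587).

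**Figure D4:**
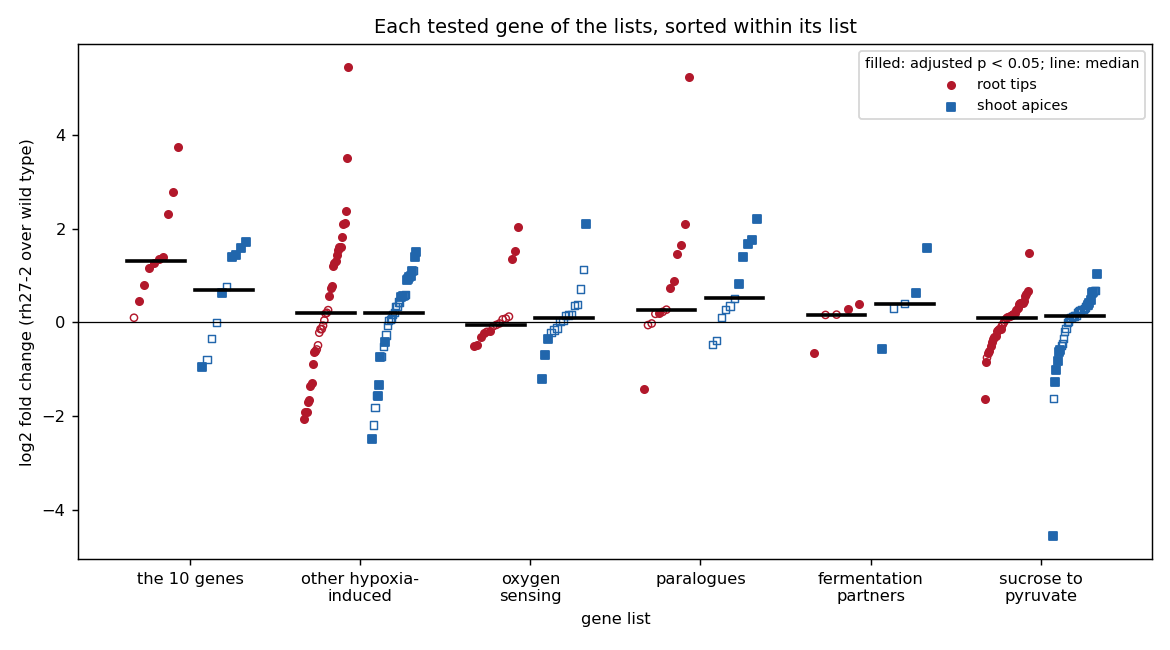
Log2 fold change of rh27-2 over wild type (y axis) for each tested gene of the 10 and of 5 related lists (x axis, sorted within a list), in root tips (circles) and shoot apices (squares), with filled points at an adjusted p under 0.05 and lines at the median. Genes that passed the filter through 1 genotype only are included. The other low-oxygen genes spread to both sides of 0 in root tips, while the 10 genes lie above it.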

How the data were processed

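The deposited files of the 12 mRNA libraries hold raw counts per locus, without a header. Per the submitters' processing notes, TopHat2, HTSeq, edgeR and Bowtie2 were used and the build was TAIR10, with no roles or versions. The strand of counting is not given in the sources used here, so antisense reads cannot be told apart, and reads of close paralogues may be shared. The 12 small RNA libraries were not used here. Symbols came from RefSeq (TAIR10.1), which matched 33056 loci. Loci it gives no symbol are named by locus.

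Groups came from the labels. Counts were tested with edgeR 4.0.16 in R 4.3.3 (filterByExpr with a minimum count of 10, TMM, robust quasi-likelihood fits, Benjamini-Hochberg adjustment). Each organ was fitted on its 6 libraries, and organ contrasts and the interaction on all 12. The code was tested on simulated data. The 12 pairs of replicates differed by more than sampling noise (chi-square per degree of freedom 3.88 to 56.544), so none was a copy. Same-numbered shoot libraries of the genotypes deviated together (correlations 0.117 to 0.329), which the labels do not state. So did 1 shoot pair with unlike numbers, rh27-2 replicate 3 and wild-type replicate 2 (0.222). The remaining shoot pairs with unlike numbers had -0.359 to -0.006. In the other comparisons same-numbered libraries did not deviate together (-0.033 to 0.035). Blocked values are therefore given where a call changes.

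The 10 genes and all lists were chosen with earlier results of these data known. Named were the 10 genes, RH27, up to 4 members of a list per comparison by smallest adjusted p, and for each of the 10 the gene of the set and the 2 others with a mean log2 CPM of at least 1 that correlated best. PCO4, PCO5, ACBP1, RAP2.2, HRE2, SUS2, LBD40, AT5G01320, STM, KNAT1, CLV3, WUS and WOX5, and some values in the second organ, were added to spell out counts. Alternatives were DESeq2 1.42.0 (its test and its size factors), scaling to total counts, no filter, a replicate block, other sets of libraries in the fit, leaving out each library and, chosen after seeing the data, limma-voom (limma 3.58.1).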

Additional observations from a re-analysis of the deposited data

Results flagged for a closer look

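The effect of rh27-2 differed between the organs, by the interaction test of edgeR, for 5 of the 10 genes and for RH27. Of all loci, 21.4% were called higher and 22.6% lower in this test, so the share among the 10 was near that of all loci. As root tips minus shoot apices on the log2 scale, the differences were 1.96 for HB1, 2.25 for PCO2, 1.68 for HRA1, 1.34 for LBD41 and -1.68 for SUS4. For PCO2 the wild-type root libraries held only 3, 3 and 0 counts, and it passed the root tip filter only through rh27-2. The call of LBD41 was lost in 7 of the 18 alternatives, each of which left out 1 library. For RH27 the difference was -0.53 (adjusted p = 0.0181), and its fall was the larger one in root tips. With scaling to total counts it was -0.30 and not called (adjusted p = 0.145).

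Among the paralogues the same test gave -2.86 for PDC3, -2.04 for SUS5, -1.09 for SUS6 and 1.53 for HB2 (adjusted p 2.89e-05, 2.45e-05, 0.00100 and 0.00168). PDC3 was lower in rh27-2 than in wild type in all root libraries and higher in all shoot libraries.

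Among the genes of oxygen sensing it gave -0.43 for RAP2.12, -0.57 for ATE1, -0.40 for ACBP2 and 0.68 for PCO3. Among the other low-oxygen genes it gave 3.63 for AT5G26200, 4.26 for AT5G39580, 0.95 for RBOHD and 2.36 for PHI-1. AT5G26200 passed the root tip filter only through rh27-2, with 16, 19 and 8 counts in the wild-type root libraries. AT5G39580 measured 131, 114 and 101.7 CPM in rh27-2 root tips against 2.29, 1.75 and 3.99 CPM in wild type, and 106.9, 253 and 357 CPM in rh27-2 shoot apices against 82.2, 127.5 and 108 CPM in wild type.

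Among the fermentation partners it gave 0.89 for ALDH2B4 and -2.31 for ALDH2B7, which moved in opposite directions in each organ. Among the genes from sucrose to pyruvate it gave -1.20 for UGP1, 0.95 for AT5G08570, 1.92 for PFK2 and -0.88 for AT5G56350.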

How the results depend on the processing

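The root tip rises of HB1, PDC1, PCO1, SUS1, HRA1 and LBD41 and the shoot rises of PDC1, PCO2, SUS1 and SUS4 held under all 12 alternatives run for each. The root rise of PDC2 was lost with no filter (adjusted p = 0.0902) and with all 12 libraries in 1 fit (0.0879). In shoot apices PDC2 was lost with scaling to total counts (0.064), and HB1 was gained with all 12 libraries (0.83, adjusted p = 0.0388). Without each replicate in turn, the genes of the 10 called higher in shoot apices numbered 4 to 5 and those lower 0 to 1, and over all loci 2531 to 3789 were higher and 1960 to 3908 lower, the least without rh27-2 shoot replicate 2. With all 12 libraries, 6192 loci were higher in shoot apices, beside 4007. Sign changes were confined, among the 10, to values that passed no test as first given or with the sign changed. In shoot apices these were LBD41 at 0.0100 with DESeq2's size factors, 0.0105 with DESeq2 and 0.0547 with all 12 libraries. Leaving out single libraries there, they were LBD41 (-0.395 to 0.30), ADH1 (-1.23 to 0.27) and PCO1 (-0.644 to 0.0011). For the organ difference it was PDC2 at 0.0043 with total counts. Between organs of rh27-2 it was HRA1 at 0.12 with total counts. Leaving out single libraries in that contrast, they were HB1 (-0.0053 to 0.77), PCO1 (-0.0446 to 0.57) and HRA1 (-0.26 to 0.0212). The 0.77 of HB1, without rh27-2 shoot replicate 2, kept its sign and was called (edgeR adjusted p = 0.00752).

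With the replicate number as a block the calls among the 10 were unchanged in root tips and in shoot apices, where 4606 loci were higher and 4312 lower, PCO1 was gained for the organ difference and lost between wild-type organs, and no other call of the 10 changed. Scaling to total counts moved the median of all loci to 0.29 for the organ difference, beside 0.061, and to 0.35 between organs of rh27-2, beside 0.083, with 6883 loci higher for the organ difference beside 4460. The share of higher calls was then 67.5% beside 48.7%, and 64.2% beside 53.0%. The shift was to 0.10 in root tips and -0.11 in shoot apices. Under that scaling the organ difference was called for PDC1 (0.90) and PCO1 (1.78), and under DESeq2 for ADH1 (2.00). With limma-voom, PDC2 and PCO1 lost their wild-type organ calls (adjusted p = 0.0608 and 0.0513). PCO2 had the lowest counts of the 10 genes, at 0 to 3 in each wild-type root library. The cause of these changes was not tested.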

Other observations

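Between the organs, 37 of the 42 other low-oxygen genes were tested. In root tips 12 were higher and 20 lower in rh27-2, beside 38.5% and 34.1% of all loci, and 11 were higher and 22 lower in wild type, beside 37.1% and 39.2% of all loci. CML38, a calmodulin-like gene, had log2 values of -5.36 in rh27-2 and -6.04 in wild type (root tips over shoot apices, edgeR), and RBOHD had -3.27 in rh27-2 and -4.22 in wild type. Of the genes from sucrose to pyruvate, 28 of 39 were higher in root tips in each genotype, beside the same 38.5% of loci in rh27-2 and 37.1% in wild type, with 5 lower in rh27-2 and 7 lower in wild type. PFK7 and PFK5, both phosphofructokinase genes, had 1.91 and 1.53 in rh27-2 and 1.92 and 1.94 in wild type.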
